A study of Mus musculus with 18 samples.

Results

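The comparison concerns B cells that were stimulated in vivo while the kinase BTK was inhibited. It sets the 5 arrays of mice given anti-IgD and PF-303 against the 4 arrays of mice given anti-IgD and vehicle. These 9 arrays, of 18 in the series, were chosen by their labels alone, and 11104 named genes passed the filter on signal. All animals were of strain C57BL/6J, and no age, sex or genetic change is given. PF-303, a BTK inhibitor by the study's design text, was injected 2 h before the antibody (vehicle in its place in the other group), and spleen B cells carrying CD23 were taken 2 h after it. The remaining 9 arrays (4 of PBS with vehicle, 5 of PBS with PF-303) share the strain and the cells, and serve here as levels of unstimulated cells and in the common estimate of the spread. The vehicle is not named and no dose is given. Replicates are numbered, but the labels do not say that each came from its own mouse, and the p-values then reflect how far these samples varied, which may be technical in part.

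BTK is a cytoplasmic kinase that is activated behind the B-cell receptor by LYN and SYK. It phosphorylates phospholipase C gamma 2, which releases calcium and diacylglycerol, and these activate calcineurin with NFAT, protein kinase C beta with NF-kB, and RASGRP proteins with RAS and ERK. The receptor also activates PI3K, which excludes FOXO factors from the nucleus, and raises MYC, which drives cell growth. IgD is the receptor isotype that mature follicular B cells carry in large amounts together with IgM, and CD23, the low-affinity receptor for IgE, marks the same cells.

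Signals are MAS5 intensities on arrays that had been scaled to one common trimmed mean, so each value is relative to the rest of its array. Fold changes are differences of log2(signal + 16), PF-303 minus vehicle, with the standard error (SE) of the limma fit. Genes with an adjusted p below 0.05 are described as called, as higher or as lower. Adding 16 shrinks the fold changes of dim genes. Among the 9 stimulated arrays principal component 1 kept the groups apart (44.2% of the variance), from 18.3 to 22.3 with vehicle and from -19.8 to -12.3 with PF-303. On component 2 (12.8%) the groups overlapped. In PF-303 replicates 1 and 3 the mean signal of the spike-in controls was 2.90 and 2.46 times the median of all arrays, against 0.531 to 1.54 in the other 7 stimulated arrays.

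With PF-303, 2195 genes (19.8% of those tested) were higher and 1146 (10.3%) were lower, 30.1% in all. Of these, 41 (0.369% of genes tested) were at least 2-fold higher and 65 (0.585%) at least 2-fold lower. Most differences were small: 60.3% of the higher and 56.7% of the lower calls were under 0.5 on the log2 scale. At the offset of 16, 24 genes were at least 2.5-fold lower and 3 at least 2.5-fold higher, but with an offset of 1, which lets dim genes move further, genes at least 2-fold numbered 139 higher and 100 lower. Every PF-303 array lay above every vehicle array, or below it, for 2971 genes (26.8%), of which 1939 were higher and 1032 lower with PF-303. The median SE was 0.123, which gives a 95% interval of 0.255 to either side.

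The balance of higher and lower genes rests on how the arrays are scaled. The median over all genes was 0.083, and setting the median of the tested genes equal in every array moved it to -0.025, which changed the split from 2195 higher and 1146 lower to 1283 and 1690. Sizes of list medians are therefore read against 0.083, and counts within a list against the 19.8% of all genes higher and 10.3% lower. Where equal medians move a count by over 1.5 times, that count is given too. The labels hold a position code, whose meaning is not given. Fitting its letter as a block left 1066 genes higher and 655 lower. Only letter C held both stimulated groups, with 2 arrays of PF-303 and 1 of vehicle. Within it 64 of the 65 genes at least 2-fold lower and all 41 at least 2-fold higher had the same sign. The arrays of letter C also helped to choose these genes, so this agreement was largely fixed in advance and is no independent check.

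**Figure D1:**
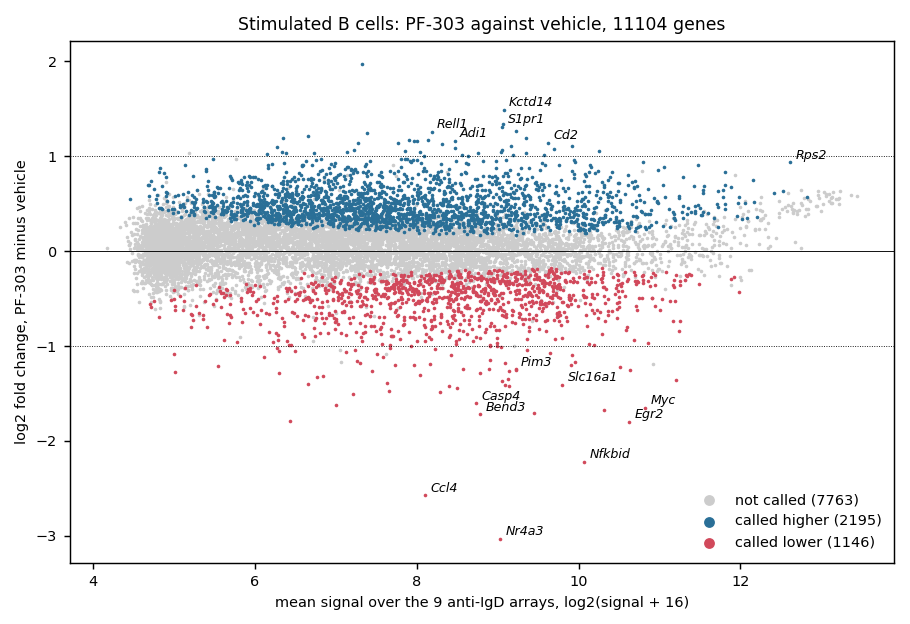
Log2 fold change, PF-303 minus vehicle (vertical axis), against the mean signal of the 9 anti-IgD arrays as log2(signal + 16) (horizontal axis), with 1 point per gene. Grey points were not called, 2195 blue points were called higher and 1146 red points lower, and dotted lines mark 2-fold differences. The falls reach -3.03 (Nr4a3), and the rises of the genes named in the plot end at 1.49 (Kctd14).

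Follicular B cell markers lay above the filter level, but so did most markers of some other cell types. All 12 follicular genes on the arrays, among them Ms4a1 (CD20) and Fcer2a (CD23), had a mean above it. Of 14 T cell genes 9 had a mean below it. That held for 1 of 17 macrophage and monocyte genes and 1 of 11 marginal zone and B1 cell genes. It also held for 1 of 9 plasma cell genes and 1 of 7 erythroid genes. The filter level therefore does not tell follicular B cells from these latter types. The summed signal of the follicular list was 22936 to 27436 with vehicle and 30056 to 43453 with PF-303, and that of marginal zone and B1 cell genes was 6258 to 7362 and 8749 to 12144, so neither overlapped. The erythroid sum, which includes Tfrc, was 1623 to 2071 with vehicle and 779 to 1284 with PF-303 (no overlap). Tfrc alone had means of 1414 and 623 and was the only gene called lower of the 6 erythroid genes tested, with 1 called higher. T cell sums (131 to 224 and 162 to 261) and macrophage sums (2591 to 7665 and 4276 to 7342) overlapped between the groups. In bulk samples, more cells of a type and more RNA per cell cannot be told apart. Fcer2a had signals of 1714, 1543, 1716 and 2042 with vehicle and 2359, 2179.9, 2167, 1999 and 2114 with PF-303 (0.31 ± 0.10, adjusted p = 0.018), and the highest vehicle array lay above the lowest PF-303 array. This call ended in 5 of 24 alternative settings, among them the fit without replicate 2 of anti-IgD with vehicle and that with equal medians (0.20 to 0.26). Ms4a1 (0.61 ± 0.24, adjusted p = 0.06) and Ighm, the heavy chain of IgM (0.45 ± 0.25, adjusted p = 0.18), did not pass the test.

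Btk itself, the target of the drug, had more RNA with PF-303. Its signals were 691, 689, 763 and 673 with vehicle and 1075, 915, 965, 1139.7 and 983 with PF-303, without overlap (0.52 ± 0.07, adjusted p = 1.0e-05). The unstimulated vehicle arrays had 1023 ± 29.4 (SD, n = 4), near the PF-303 level. An inhibitor of the kinase's activity need not change its RNA, so these values do not check that the drug reached its target.

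Early transcription factors held the largest single fall. As a class, early genes are switched on within minutes to hours of receptor engagement without new protein synthesis. Not every gene of the list was above its unstimulated level with anti-IgD and vehicle. Of 32 tested, 14 were lower and 4 higher, with a median of -0.35 against 0.083 for all genes. The mean level of the list lay between -0.53 and -0.42 in the 5 PF-303 arrays, relative to the vehicle mean.

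Nr4a3, an orphan nuclear receptor, had signals of 935, 832, 1090.3 and 1151 with vehicle and 137, 102, 133, 70.5 and 108 with PF-303. The groups lay far apart, and the difference was -3.03 ± 0.18 (adjusted p = 3.8e-10). Egr2, a zinc finger factor that restrains as well as drives lymphocyte activation, gave 2868, 2485, 2196 and 2846 with vehicle and 691, 676, 751, 705 and 843 with PF-303 (-1.80 ± 0.13). Its PF-303 arrays stayed above all unstimulated vehicle arrays, whose mean was 62.7 ± 19.8 (SD, n = 4). In PBS with PF-303 Egr2 had 8.57 to 14.9, below the 37.2 to 84.5 of PBS with vehicle. Maff, a small MAF protein that dimerises with other basic leucine zipper factors, gave 198, 215, 248 and 198 and 67.4, 68.5, 56.1, 72.2 and 62.6 (-1.50 ± 0.18). Fos, a subunit of AP-1, was less even: 411, 217, 233 and 245 with vehicle and 36.9, 73.4, 71.0, 327 and 62.5 with PF-303 (-1.47 ± 0.38, adjusted p = 0.0049). Replicate 4 of PF-303 lay within the vehicle range and far above the other 4, and its vehicle replicate 1 stood above the other 3. In PBS with vehicle Fos had 135 to 303, which overlapped the stimulated vehicle arrays. In PBS with PF-303 it had 11.9 to 65.1, so it was lower with PF-303 without stimulation too.

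Not all early factors were lower. Klf6, a zinc finger factor, had 260.1, 249.6, 265 and 251 with vehicle and 561, 432, 421, 432 and 502 with PF-303 (0.82 ± 0.09, adjusted p = 6.4e-07). Jun, the partner of FOS in AP-1, had 236, 177, 255 and 220.1 and 286, 312, 298, 329 and 318 (0.46 ± 0.11), and Hes1, a repressor downstream of Notch, had 111, 133, 112 and 98.7 and 172, 139, 208, 223 and 204 (0.65 ± 0.11). In each of these 3 genes every PF-303 array lay above every vehicle array. Unstimulated vehicle arrays had 368 to 460 for Klf6 and 159 to 178 for Hes1, above the stimulated vehicle arrays of either gene. For Jun they had 185 to 269, which overlapped the stimulated vehicle arrays.

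**Figure D2:**
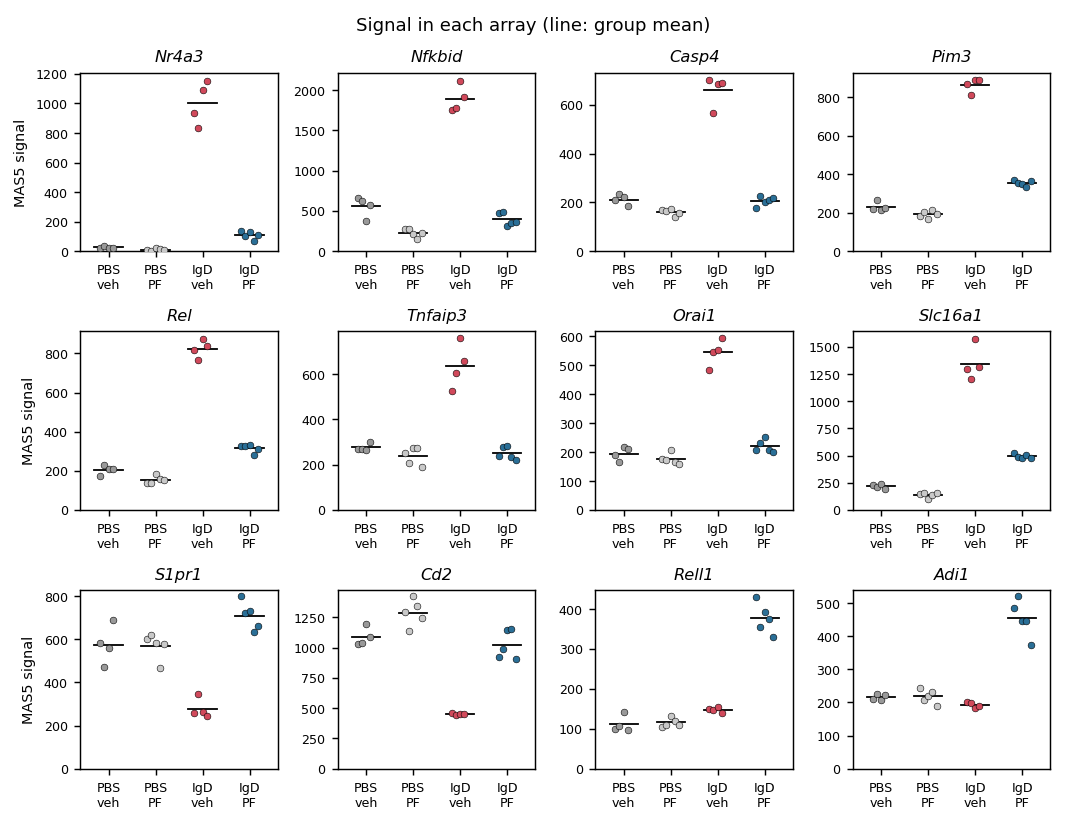
MAS5 signal (vertical axis, from 0) of 12 genes in each of the 18 arrays, by group: PBS with vehicle (4), PBS with PF-303 (5), anti-IgD with vehicle (4) and anti-IgD with PF-303 (5), with 1 point per array and a line at the group mean. In the upper 8 genes the 5 stimulated PF-303 arrays lie below the 4 stimulated vehicle arrays, as for Nr4a3 at 70.5 to 137 against 832 to 1151, and in the lower 4 above them, as for Cd2 at 909.6 to 1154 against 446 to 457.

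NF-kB genes were called in both directions. NF-kB dimers of REL and RELA type are held in the cytoplasm by IkB proteins, and they induce many of their own inhibitors. Of 23 subunits, IkB proteins and feedback regulators, 10 were lower and 4 higher (median -0.04). The lower genes were led by the nuclear IkB proteins Nfkbid and Nfkbiz, by Rel, the subunit that lymphocytes depend on for growth, and by Tnfaip3, whose product A20 is a ubiquitin-editing inhibitor of the pathway. Signals of Nfkbid were 1749.7, 1778, 2117 and 1918 with vehicle and 479.7, 483, 317, 355 and 358 with PF-303 (-2.22 ± 0.16), against a mean of 558 ± 124 (SD, n = 4) in unstimulated vehicle arrays. In PBS with PF-303 Nfkbid had 152 to 278, below the 381 to 661 of PBS with vehicle. Every stimulated PF-303 array thus lay above every unstimulated PF-303 array. Rel had 818, 768, 876 and 839 and 329, 325, 330.3, 279 and 314 (-1.34 ± 0.09), and its 5 PF-303 arrays stayed above every PBS array. Tnfaip3 had 525, 604, 760.0 and 659 and 240.3, 278, 284, 232 and 222 (-1.28 ± 0.11), close to the 276 ± 16.8 (SD, n = 4) of unstimulated cells. Nfkbiz had 1159, 1100.5, 1024 and 1216 and 366, 337, 299, 327 and 339.7 (-1.71 ± 0.12).

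On the other side stood Traf5, an adaptor of TNF receptor family members, at 128, 168, 130.3 and 124 with vehicle and 331, 270.1, 288, 265 and 263 with PF-303 (0.97 ± 0.09, adjusted p = 6.0e-08). Of the other 3 that were called higher, all by small amounts, Tnip1 (0.42 ± 0.10), a partner of A20, lost its call with the position letter as a block (0.40). With equal medians, or without vehicle replicate 2, vehicle replicate 5 or PF-303 replicate 4, 2 of the list were higher.

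Promoter sequences were searched for the sites of the factors named above, since the largest falls included Rel and its inhibitors. RefSeq promoter windows (GRCm38.p6, 250 bases before to 50 after a gene's start) were found for 56 of the 65 genes at least 2-fold lower, 31 of the 41 at least 2-fold higher and 9036 of all genes tested, some with several starts. A kappa-B site, searched on both strands as 3 G, any 2 bases, 3 T and 2 C, was in 4.60% of the windows of lower genes, 2.33% of those of higher genes and 1.81% of all. The genes that held it were Rel, Tnfaip3 and Casp4 among the lower and Il16 among the higher, and the stretches around these matches follow, 5′ to 3′ on the gene's strand with the match in capitals.
Rel, chr11:23771015-23771096 (minus strand): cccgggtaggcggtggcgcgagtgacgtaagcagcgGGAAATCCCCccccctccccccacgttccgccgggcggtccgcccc
Tnfaip3, chr10:19015377-19015458 (minus strand): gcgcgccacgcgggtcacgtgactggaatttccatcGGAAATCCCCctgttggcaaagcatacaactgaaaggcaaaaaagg
Casp4, chr9:5308720-5308801 (plus strand): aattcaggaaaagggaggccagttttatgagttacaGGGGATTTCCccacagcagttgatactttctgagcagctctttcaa
Il16, chr7:83655499-83655580 (minus strand): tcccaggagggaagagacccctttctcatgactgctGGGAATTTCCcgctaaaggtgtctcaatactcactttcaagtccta
The matches of Rel and Tnfaip3 read GGAAATCCCC, the searched letters on the other strand, 91 and 12 bases before the gene's start. That of Casp4, GGGGATTTCC, lay 93 bases before the nearer of its starts, and Casp4 held another on the other strand. Il16 has its match, GGGAATTTCC, at 49 bases before a start.

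The cAMP response element TGACGTCA, which CREB and ATF factors bind, was in 5.75% of the windows of lower genes, 2.33% of those of higher genes and 347 of the 11553 windows of all genes. Of the genes at least 2-fold lower 5 held it, and it is shown for Nfkbid, Maff and Ppan. It is also shown for Irf2bpl, the only gene at least 2-fold higher that held it.
Nfkbid, chr7:30422319-30422398 (plus strand): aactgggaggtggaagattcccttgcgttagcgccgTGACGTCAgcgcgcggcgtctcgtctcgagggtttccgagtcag
Maff, chr15:79347455-79347534 (plus strand): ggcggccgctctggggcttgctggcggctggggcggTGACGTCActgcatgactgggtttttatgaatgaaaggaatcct
Ppan, chr9:20888104-20888183 (plus strand): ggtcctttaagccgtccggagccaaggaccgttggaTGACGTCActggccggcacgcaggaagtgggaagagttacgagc
Irf2bpl, chr12:86884801-86884880 (minus strand): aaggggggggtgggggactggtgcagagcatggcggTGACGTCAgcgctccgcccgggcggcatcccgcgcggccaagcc
In each of these 4 the element lay 29 to 51 bases before the start. In Pogk and Ppp1r15a, the lower genes not shown, it lay 65 and 12 bases before it. The FOXO site GTAAACA showed the widest gap, with 10.3% of windows of lower genes, 2.33% of higher genes and 2.78% of all. It was held by 8 of the 56 lower genes, among them Pim1 and Myb.
Pim1, chr17:29492979-29493057 (plus strand): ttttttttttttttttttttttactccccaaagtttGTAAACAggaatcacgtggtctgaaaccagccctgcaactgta
Myb, chr10:21160935-21160987 (minus strand): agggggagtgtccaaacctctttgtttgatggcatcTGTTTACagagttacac
Shares for the other sites lay closer together or on the other side: AP-1 (TGANTCA) 2.30% of windows of lower genes and 5.08% of all, EGR (GCGNGGGCG) 9.20% and 10.1%, the E-box of MYC and MAX (CACGTG) 13.8% against 1161 of the 11553 windows of all genes, and the NFAT core (GGAAAA) 25.3% and 20.5%. The NFAT core can fall within a kappa-B match on the other strand. These shares rest on as few as 1 window and are descriptions. A match is a match of letters, not a bound site.

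Genes for secreted signals were called in both directions. The chemokines Ccl3 and Ccl4, which draw T cells to activated B cells, were lower: Ccl4 had 489.7, 422, 497 and 569 with vehicle and 69.7, 68.5, 90.4, 63.2 and 58.0 with PF-303 (-2.57 ± 0.19), and Ccl3 136, 108, 135 and 127 and 18.9, 17.8, 28.4, 39.2 and 24.3 (-1.79 ± 0.18). For both genes the groups were far apart, and the PF-303 arrays still lay above every PBS array. Il16, a T cell attractant, had 301, 397, 418 and 314 and 739, 752, 690.2, 786 and 696 (1.01 ± 0.10), and Ebi3, a subunit shared by heterodimeric cytokines, 61.3, 46.9, 73.3 and 62.5 and 97.3, 95.4, 124, 105 and 102 (0.65 ± 0.10). The lymphotoxin genes Ltb (0.65 ± 0.15) and Lta (0.53 ± 0.10) were higher too, whereas Tnf, their neighbour in the genome, was lower (-0.48 ± 0.15, adjusted p = 0.016). The calls of Ltb (0.43) and Tnf ended with the position letter as a block, and that of Tnf also without vehicle replicate 2 (-0.46 to -0.39). Of 18 cytokine genes tested, 4 were higher and 3 lower (median -0.01), beside 19.8% higher and 10.3% lower of all genes. With equal medians 6 were lower, and without vehicle replicate 5 there were 5.

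Calcium genes went both ways. Store-operated calcium entry needs ORAI channels in the plasma membrane and STIM sensors in the endoplasmic reticulum. Orai1 had 483, 545, 553 and 595 with vehicle and 208, 232, 253, 207 and 200.5 with PF-303 (-1.25 ± 0.09, adjusted p = 4.8e-09), and the PF-303 arrays were close to the 195 ± 23.5 (SD, n = 4) of unstimulated cells. Orai3 (0.61 ± 0.09) and Stim1 (0.55 ± 0.13) were higher, as were the inositol trisphosphate receptor gene Itpr3 (0.51 ± 0.10) and Ppp3ca, the catalytic subunit of calcineurin (0.45 ± 0.08). Nfatc1, an NFAT factor that is itself induced by NFAT, had 1595, 1404, 1696 and 1812 and 998, 1203, 1292, 1189 and 1264 (-0.45 ± 0.11). Over the 24 genes 8 were higher and 4 lower (median 0.15). With the position letter as a block 2 were lower, and the call of Stim1 ended (0.52).

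The RAS and MAPK list also held both directions, with 12 of 33 higher and 5 lower (median 0.06). Dusp6, a phosphatase that inactivates ERK, had 417, 408, 435 and 374 with vehicle and 936, 733, 698, 742 and 736 with PF-303 (0.88 ± 0.09). Rasgrp3, a diacylglycerol-dependent activator of RAS (0.91 ± 0.10), Rasa3, a RAS GTPase-activating protein (0.85 ± 0.10), and Mapk14, the p38 alpha kinase (0.87 ± 0.09), were higher. Dusp2, a nuclear phosphatase of ERK and p38 that activation induces, went the other way, with 3011, 2771, 2771 and 3212 and 1692, 1849, 2035, 1512 and 1759.5 (-0.73 ± 0.08). Rgs2 (-0.71 ± 0.12) was lower as well. The number lower was 2 with the position letter as a block and 3 without vehicle replicate 1, 4 or 5 or PF-303 replicate 2.

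Of 35 kinases and adaptors next to the receptor 17 were higher, 6 lower and 12 not called (median 0.28). Dok3, an inhibitory adaptor, had 297, 292, 260.2 and 279.7 with vehicle and 587, 527, 576, 632 and 483 with PF-303 (0.95 ± 0.12). Lat2, an adaptor of phospholipase signalling (0.80 ± 0.11), Plcg2, the substrate of BTK (0.62 ± 0.08), and Fgr, a SRC family kinase (0.60 ± 0.11), were higher. The lower genes included Vav3, a guanine nucleotide exchange factor (114, 102, 94.6 and 98.9 and 49.4, 48.1, 31.9, 44.4 and 45.5, -0.99 ± 0.13), Grap, an adaptor related to GRB2 (-0.66 ± 0.07), and Fyn, a SRC family kinase (-0.55 ± 0.13), with 3 others. Without stimulation Vav3 was lower with PF-303 too, at 36.4 to 59.0 against 64.4 to 92.7 with vehicle. With the position letter as a block 3 of the list were lower.

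Of 16 receptor chains and coreceptors 7 were higher, 1 lower and 8 not called (median 0.46). Inhibitory coreceptors were called in both directions. Siglecg, a sialic acid receptor that dampens receptor signalling, had 494, 475, 447 and 452 with vehicle and 1221, 851, 940.3, 1031 and 798 with PF-303 (1.01 ± 0.16). Pirb, an inhibitory receptor for MHC class I, had 63.2, 54.3, 76.0 and 50.6 and 99.1, 105, 134, 165 and 113 (0.84 ± 0.13), and Cd22 2745, 2633, 2528 and 2723 and 4964, 3724, 4679.6, 4024 and 3643 (0.65 ± 0.15). The lower gene was Cd72, also an inhibitory coreceptor, with 3071, 2705, 2721 and 3235 with vehicle and 2528, 2247, 2756, 2567 and 2253 with PF-303, so that the groups overlapped (-0.25 ± 0.09, adjusted p = 0.036). Cd79b, a signalling chain of the receptor, had 3187, 3527, 2959.5 and 3381 and 5348, 5139, 7618, 5123 and 4717 (0.75 ± 0.22). Its partner Cd79a had 1135, 1157, 1029 and 1145 and 4788, 1470.2, 1694, 1931 and 1436; no arrays overlapped, but replicate 1 of PF-303 was far above the other 4 and the value of 0.84 ± 0.32 missed the threshold (adjusted p = 0.054). The calls of Cd22 and Cd79b ended with the position letter as a block (0.56 and 0.45). The mean level of this list was 0.55 and 0.56 in PF-303 replicates 1 and 3, of high spike-in signal, and 0.28 to 0.45 in the other 3, and the sum of follicular markers was higher with PF-303 as given above; the part of either in these rises was not tested. Fitted on the 9 stimulated arrays alone, 11 of the list were higher. The call of Cd72 ended in 7 of 24 settings (-0.38 to -0.20), among them those without vehicle replicate 1 or 5 or PF-303 replicate 2 or 5, which left 0 of the list lower.

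Genes that place B cells in tissue were called in both directions. S1pr1 lets lymphocytes leave lymphoid tissue, and CD69 and GPR183 are raised on activation, the former to hold cells in place and the latter to guide them to the outer follicle. Of 29 genes, 16 were higher and 4 lower (median 0.35); 9 were higher with equal medians and also with the position letter as a block. S1pr1 had 259, 344, 261 and 245 with vehicle and 799.8, 722, 729, 633 and 662 with PF-303 (1.31 ± 0.11), and S1pr4, its relative, 137, 159, 158 and 144 and 328, 286, 339, 329.8 and 345 (1.04 ± 0.09). Cnr2, the cannabinoid receptor that helps retain B cells in the marginal zone and sinusoids, had 518, 534, 546 and 672 and 999.9, 1279, 1088, 965 and 1072 (0.91 ± 0.10), and Emp3, a membrane protein, 292, 258, 273 and 261 and 514, 663, 819.6, 922 and 697 (1.34 ± 0.13). The 4 lower genes were Gpr183 (2169, 2433, 1939.5 and 2387 and 1122, 1135, 1231, 1238 and 1070.5, -0.93 ± 0.08), the adhesion ligand Icam1 (444, 503, 492 and 497 and 262, 229, 258, 261 and 229, -0.92 ± 0.08), Cd69 (-0.82 ± 0.15) and the hyaluronan receptor Cd44 (-0.38 ± 0.09).

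G-protein regulators set how strongly such receptors signal. Of 23 tested, 10 were higher and 3 lower (median 0.33). Rgs14 had 119, 177, 157 and 157 with vehicle and 346, 309, 289, 324 and 289 with PF-303 (0.97 ± 0.09), and Gng2 (0.93 ± 0.12) and Gpsm3 (0.69 ± 0.12) were higher. Rgs13, which curbs chemokine receptor signalling in activated B cells, was lower, with 166, 205, 177 and 248 and 109, 102, 86.4, 80.8 and 134 (-0.86 ± 0.19). Arhgef1, a guanine nucleotide exchange factor (0.92 ± 0.26), lost its call with the position letter as a block (1.14), and its replicate 1 of PF-303 stood at 833 against 347 to 431 in the other 4.

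Costimulatory and antigen presentation genes were higher in 16 of 31 cases and lower in 2 (median 0.42), with 8 higher with the position letter as a block. Sema4b had 246, 287, 240.4 and 246 with vehicle and 723, 443, 547, 598 and 428 with PF-303 (1.03 ± 0.16), Cd48, a ligand of CD244 and CD2, 642, 644, 564 and 654 and 1104, 1394, 1290.4, 1105 and 1310.4 (0.97 ± 0.09), and Tnfrsf13b, the TACI receptor, 826, 822, 826 and 822 and 1610.3, 1369, 1403, 1740.4 and 1356 (0.84 ± 0.10). Icosl, the ligand of ICOS on T cells (0.94 ± 0.27, adjusted p = 0.012), had 576 in replicate 1 of PF-303 and 194 to 271 in the other 4, and lost its call with the position letter as a block (0.94). The level of the list was 0.48 and 0.50 in PF-303 replicates 1 and 3, of high spike-in signal, and 0.24 to 0.34 in the other 3; the part of that signal in these rises was not tested. Cd86, a ligand of CD28 on T cells, was lower: 824, 639.7, 675 and 845 and 549, 567, 621, 450.1 and 497 (-0.46 ± 0.09). Without the 6 high spike-in arrays 4 of the list were lower, and without vehicle replicate 1 or 5 or PF-303 replicate 2 or 5 there was 1. H2-Aa, a chain of MHC class II, ran from 5752 to 7897 with vehicle and from 7884 to 14527 with PF-303, and did not pass the test (0.55 ± 0.27, interval -0.01 to 1.12, adjusted p = 0.13).

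**Figure D3:**
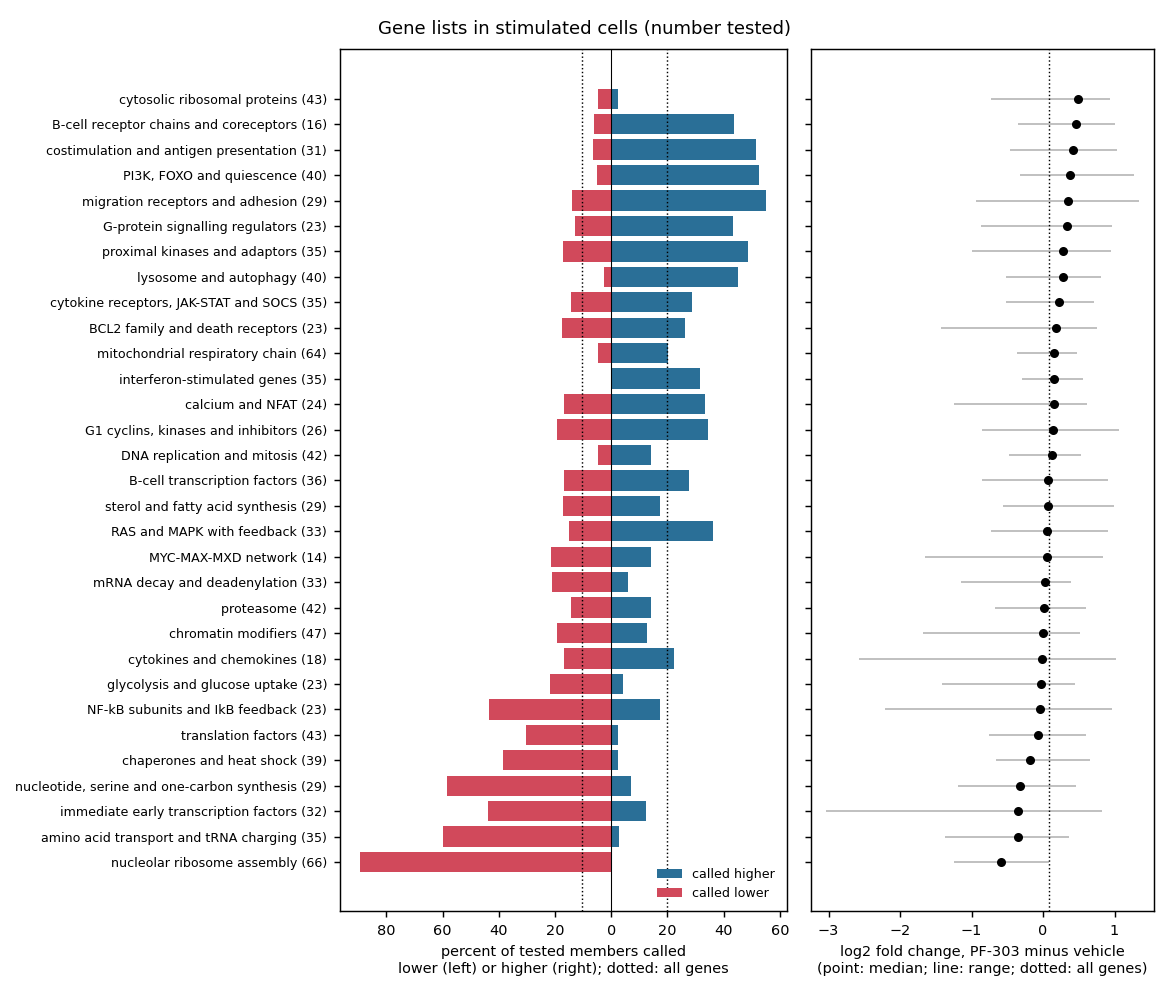
Left, percent of the tested members of each of 31 gene lists called lower (red, to the left) or higher (blue, to the right) with PF-303, with dotted lines at the shares of all genes (10.3% and 19.8%) and the number tested in brackets. Right, the median log2 fold change of each list (point), its range (line) and the median of all genes (dotted, 0.083), from nucleolar ribosome assembly at -0.59 to cytosolic ribosomal proteins at 0.49.

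Genes of the PI3K and FOXO axis are tied to quiescence. FOXO factors keep resting lymphocytes out of cycle and are inactivated by AKT, and several of the genes listed are their targets or negative regulators of PI3K. Of 40 tested, 21 were higher, 2 lower and 17 not called (median 0.37). The list level relative to the vehicle mean was 0.36 to 0.43 in the 5 PF-303 arrays and -0.09 to 0.06 in the vehicle arrays. Ddit4, an inhibitor of mTORC1, had 289.8, 363, 372 and 252 with vehicle and 606, 1046, 648, 840.1 and 839.9 with PF-303 (1.27 ± 0.17). Tsc22d3, which encodes the glucocorticoid-induced protein GILZ, had 337, 417, 509 and 331 and 709.9, 996, 763, 919 and 755 (1.04 ± 0.13), all below the unstimulated arrays. Pik3ip1, an inhibitor of PI3K, had 263, 209, 307 and 187 and 511, 535, 482, 495 and 444 (1.01 ± 0.13), and its PF-303 arrays lay above every PBS array, whose vehicle mean was 222 ± 31.0 (SD, n = 4). Mtor, the kinase of mTORC1, was among the lower genes (-0.31 ± 0.10); its call ended without vehicle replicate 4 and with the position letter as a block (-0.26 to -0.25). Without any 1 of the vehicle arrays, or without PF-303 replicate 4, 1 gene of the list was lower.

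Cell cycle genes of the G1 phase were called in both directions. Cdkn1b, the inhibitor p27 of cyclin-dependent kinases, had 326, 371, 277 and 292 with vehicle and 665, 685, 687, 730.2 and 616 with PF-303 (1.06 ± 0.09), while unstimulated vehicle arrays had 989 ± 92.0 (SD, n = 4). Cdkn2d, an inhibitor of CDK4 and CDK6 (0.77 ± 0.10), Rbl2, a retinoblastoma relative of quiescent cells (0.65 ± 0.13), and E2f2 (0.60 ± 0.14) were higher. Cdk6 had 355, 309, 377 and 437 and 198, 201, 206, 201 and 205 (-0.81 ± 0.09), Plk3 149, 166, 172 and 161 and 79.2, 88.2, 86.1, 85.1 and 71.9 (-0.86 ± 0.15), and Ccnd2, a D-type cyclin, 948, 1007, 1013 and 909 and 645, 635, 755, 887 and 646 (-0.44 ± 0.12). Of the 26 genes 9 were higher and 5 lower (median 0.14); 3 were lower with the position letter as a block, with the spike-in covariate, without vehicle replicate 2 or without PF-303 replicate 4. Of 42 genes of DNA replication and mitosis 6 were higher and 2 lower (median 0.13), both below the shares of all genes (19.8% and 10.3%). Pold2, a subunit of DNA polymerase delta, was lower (-0.48 ± 0.07), and the clamp loader subunits Rfc1 (0.43 ± 0.08) and Rfc2 (0.53 ± 0.12) were higher. With equal medians 3 were higher and 4 lower.

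Genes of cell growth held many of the falls. MYC, together with its partner MAX, binds the promoters of genes for ribosome assembly and nucleotide synthesis. Myc had 2904, 2923, 2688 and 3016 with vehicle and 1272, 885, 914, 791 and 759 with PF-303 (-1.65 ± 0.13, adjusted p = 5.2e-09), and the highest PF-303 array, replicate 1, was under every vehicle array. Without stimulation Myc was lower with PF-303 too, at 228 to 284 against 457 to 680 with vehicle. Pvt1, the noncoding gene beside Myc, was lower (-0.64 ± 0.16), and Mxd4, which competes with MYC for MAX, was higher, with 132, 147, 162 and 101 and 264, 234, 244, 281 and 244 (0.84 ± 0.11). Of 14 genes of this network 2 were higher and 3 lower (median 0.05), and with equal medians 5 were lower. With the position letter as a block 1 was higher.

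Nucleolar genes of ribosome assembly were mostly lower. Of 66 genes 59 were lower and 0 higher, at a median of -0.59, beside 10.3% of all genes lower. Without the filter on dim probe sets, with the letter block and in every other alternative the number lower stayed within 1.5 times of 59. The list level was -0.64 to -0.58 in the 5 PF-303 arrays, and PF-303 replicates 1 and 3 did not stand apart (-0.59 and -0.58). Without stimulation the list level was lower with PF-303 too, at -1.41 to -1.35 against -1.16 to -1.10 with vehicle. Rrp1b, a nucleolar protein of pre-ribosomal RNA processing, had 702, 542, 752 and 735 with vehicle and 265, 299, 251, 257 and 316 with PF-303 (-1.24 ± 0.11). Nolc1, a chaperone of small nucleolar particles, had 1422, 1209, 1364 and 1439.8 and 621, 609.8, 555, 717 and 643 (-1.09 ± 0.08), Ppan, a factor of the large subunit, 724, 637, 765 and 728 and 314, 341, 378, 368 and 331 (-1.01 ± 0.10), and Rrp9, a protein of the U3 particle, 274, 272, 311 and 305 and 96.4, 111, 125, 160.5 and 104 (-1.20 ± 0.27). The Rrp9 call ended with the position letter as a block (-1.11). In the PF-303 arrays Nolc1, Ppan, Rrp1b and Rrp9 lay above every PBS array.

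Few genes for the proteins of the ribosome itself were called. Of 43 genes for cytosolic ribosomal proteins 1 was called higher and 2 lower, with a median of 0.49, and 39 of the 43 values were above 0. Rpl12 (922, 778, 934 and 941 with vehicle and 474, 649, 517, 457 and 598 with PF-303, -0.72 ± 0.12) and Rps25 (778, 703, 768 and 808 and 536, 555, 620.4, 548 and 554, -0.43 ± 0.07) were lower. Most signals of this list are bright, and they moved with the spike-in signal: the list level was 0.67 and 0.76 in PF-303 replicates 1 and 3, 0.08 to 0.29 in the other 3 and -0.23 to 0.15 in the vehicle arrays. Rps29, for example, had 9082, 9558, 6696 and 8868 and 16779, 10458, 17912, 11484 and 9232, with overlap (0.59 ± 0.29, interval -0.02 to 1.19). Rpl13a, Rpl38, Rps3a1, Rplp2 and Rps28 missed the threshold too, with values of 0.49 to 0.62 and adjusted p of 0.077 to 0.17. Rps18 (0.51) had 5 other probe sets, 3 of them called the opposite way (down to -0.62). Of the other probe sets of Rps10 (0.57), 1 of 5 was called the opposite way (-0.55), and of those of Rps20 (0.50) 1 of 3 had the same sign. Rps2 was called (0.94 ± 0.32, adjusted p = 0.03), but vehicle replicate 5 stood at 1603 against 4777 to 5844, and without it the call ended (0.51), as it did without PF-303 replicate 1 (0.86) or 3 (0.83). The number called higher depended on the fit: 0 with the spike-in signal as a covariate, 3 without PF-303 replicate 5, 7 without the 6 high spike-in arrays and 32 in a fit of the 9 stimulated arrays alone.

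**Figure D4:**
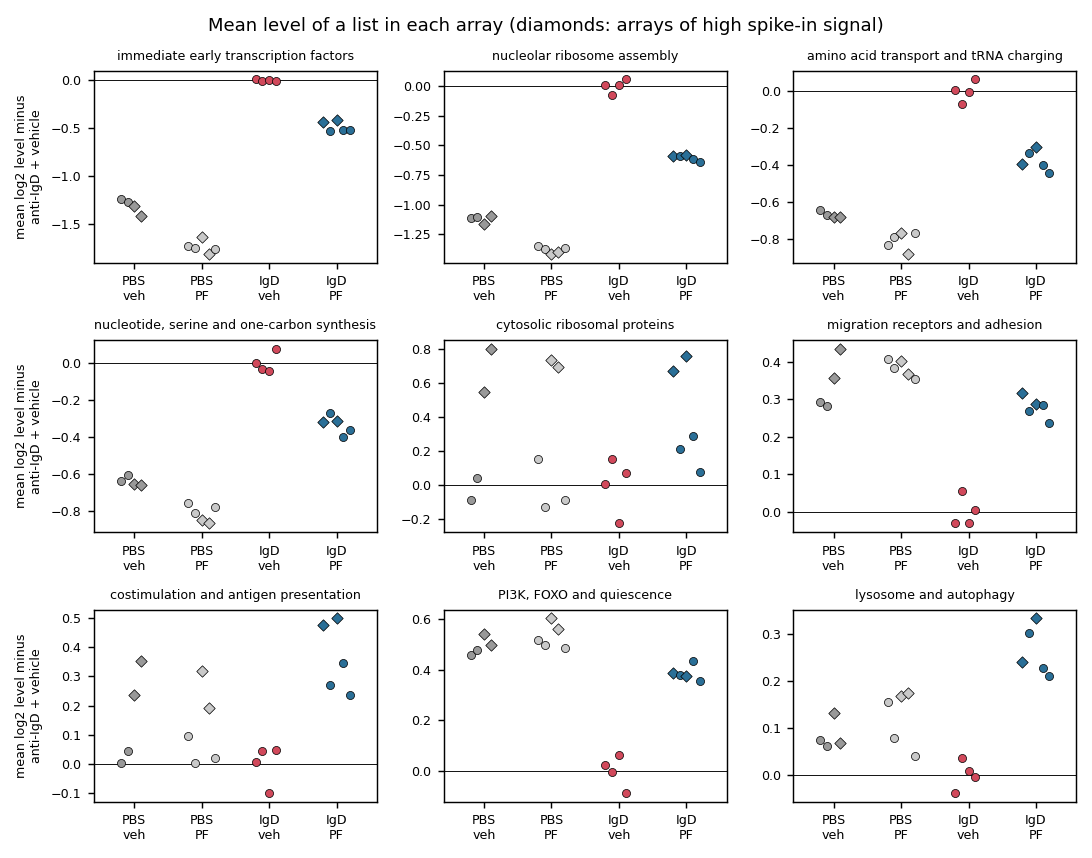
Mean log2 level of the tested members of 9 gene lists in each array (1 point per array, vertical axis), relative to the mean of anti-IgD with vehicle, by group; diamonds mark the 6 arrays of high spike-in signal. Nucleolar assembly genes lie at -0.64 to -0.58 in all 5 stimulated PF-303 arrays, whereas ribosomal protein genes lie at 0.67 and 0.76 in the 2 diamonds and at 0.08 to 0.29 in the other 3.

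Translation factors were lower in 13 of 43 cases and higher in 1 (median -0.07). Eif4e, the cap-binding protein, had 1031, 997, 1098 and 1142 with vehicle and 601, 700.4, 649.5, 644 and 679 with PF-303 (-0.69 ± 0.08). Eif2b3, a subunit of the exchange factor for eIF2 (-0.75 ± 0.10), Eif1a, a factor of start codon scanning (-0.66 ± 0.08), and Eef1e1, a scaffold of the tRNA synthetase complex (-0.67 ± 0.09), were lower. The higher gene was Eef2k, the kinase that inhibits elongation factor 2 (64.4, 57.8, 66.2 and 62.0 and 85.4, 104, 82.2, 105 and 101, 0.50 ± 0.14); its call ended with the position letter as a block (0.52). Without PF-303 replicate 4, 2 of the list were higher, without the 6 high spike-in arrays 3, and on the 9 arrays alone 5.

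Genes for amino acid supply included many of the lower calls. Of 35 genes for amino acid transporters, tRNA synthetases and the ATF4 response, 21 were lower and 1 higher (median -0.35). Slc7a5 and Slc3a2 encode the chains of the large neutral amino acid transporter LAT1. Slc7a5 had 879.9, 648, 740.0 and 883 with vehicle and 397, 295, 299.7, 232 and 261 with PF-303 (-1.37 ± 0.27), and Slc3a2 606, 554, 626 and 650.0 and 344, 339.7, 385, 364 and 340.3 (-0.75 ± 0.08). Slc7a1, a transporter of arginine and lysine, had 1582, 1325, 1517 and 1676 and 822, 783, 752, 747 and 718 (-0.98 ± 0.09), and Slc7a6 was lower by a similar amount to Slc3a2 (-0.77 ± 0.12). The valyl-tRNA synthetase gene Vars was called the other way (0.28 ± 0.10, adjusted p = 0.044), a call that ended in 14 of 24 settings, among them every fit without 1 vehicle array except that without replicate 4 (0.18 to 0.31).

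Nucleotide, serine, one-carbon and polyamine synthesis had 17 of 29 genes lower and 2 higher (median -0.32). Mthfd2, a mitochondrial enzyme of the folate cycle, had 393, 358, 413 and 444 with vehicle and 152, 162, 195, 171 and 159 with PF-303 (-1.19 ± 0.10). Srm, spermidine synthase, had 1621, 1496, 1578 and 1692 and 722, 837, 874, 813 and 742 (-0.99 ± 0.10), and Ctps, CTP synthase, 555, 509, 625 and 634 and 294, 293, 345, 281 and 284 (-0.92 ± 0.10). Odc1, the first enzyme of polyamine synthesis, was lower by a like amount with a wider spread (-0.87 ± 0.20), and 557 in replicate 4 of PF-303 was the lowest of its group. Ctps2, the second CTP synthase gene, was higher (0.42 ± 0.09), as was Psph, the last enzyme of serine synthesis (0.47 ± 0.10).

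Few glucose genes were called, and the largest falls were in a hexokinase and a lactate transporter. Hk2, a hexokinase, had 374, 315, 354 and 342 with vehicle and 150.2, 137, 171, 136 and 119.7 with PF-303 (-1.20 ± 0.10), and Slc16a1, the lactate exporter MCT1, 1301, 1205, 1568 and 1313 and 528, 486, 477, 506 and 477 (-1.41 ± 0.10). Pgam1 (-0.65 ± 0.07) and Ldha, lactate dehydrogenase (-0.36 ± 0.09), were lower too, and Taldo1, of the pentose phosphate route, was higher (0.44 ± 0.08; 0.36 and no call with the position letter as a block). In all, 5 of 23 were lower and 1 higher (median -0.03), so most enzymes of glycolysis were not called. Sterol and fatty acid synthesis had 5 of 29 higher and 5 lower (median 0.06). Fasn, fatty acid synthase, was lower (559.9, 542, 612 and 650.4 and 406, 431, 399, 363 and 392, -0.55 ± 0.08), whereas the desaturase gene Scd2 (166, 161, 191 and 119.5 and 391, 339, 309, 316 and 303, adjusted p = 6.3e-07), Insig2, which retains the sterol sensor SCAP (0.88 ± 0.09), and the cholesterol exporter Abcg1 (0.73 ± 0.12) were higher. With the position letter as a block 3 of the list were higher and 2 lower, and without vehicle replicate 2 or 5 or PF-303 replicate 4, 3 were lower.

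Of 64 respiratory chain genes 13 were higher, 3 lower and 48 not called (median 0.16), a share of higher genes near the 19.8% of all genes. With equal medians 1 was higher, with the letter block 3, and without vehicle replicate 1 there were 8. Ndufa6, a subunit of complex I, kept its call in all 24 settings (796, 887, 881 and 756 with vehicle and 1129, 1088, 988, 1113 and 1040.3 with PF-303, 0.36 ± 0.07). Cytochrome c (Cycs, -0.36) and the ATP synthase gene Atp5g1 (-0.29) were called lower; the former call ended without vehicle replicate 2 (-0.28), when 1 of the list was lower, and the latter with the position letter as a block (-0.26).

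Protein folding genes were called mainly one way. Of 39 chaperones 15 were lower and 1 higher (median -0.18), and 6 were lower with the letter block. Hspa9, the mitochondrial HSP70, had 1391, 1232, 1196 and 1376 with vehicle and 877, 848, 868, 944 and 886 with PF-303 (-0.54 ± 0.07), Hspd1, the mitochondrial HSP60, 2216, 2240.0, 2133 and 2477 and 1795, 1492, 1682, 1578 and 1507 (-0.49 ± 0.08), and Dnajc2, a ribosome-associated chaperone, was lower as well (-0.49 ± 0.08). Pdia4, a disulfide isomerase of the endoplasmic reticulum, was higher (496, 493, 456 and 421 and 1002, 659.6, 702, 808 and 608, 0.66 ± 0.12). 

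Of 42 proteasome genes 6 were higher, 6 lower and 30 not called (median 0.01). The 3 interferon-inducible catalytic subunits of the immunoproteasome were all higher: Psmb8 had 1152, 1128, 1136 and 1234 with vehicle and 1538, 1744, 1919, 1873 and 1811 with PF-303 (0.60 ± 0.08), Psmb9 704, 764, 692 and 762 and 912, 1136, 1228, 1126 and 1054 (0.56 ± 0.08), and Psmb10 543, 596, 575 and 583 and 716, 857, 948, 872 and 816 (0.53 ± 0.09). Psme3, the nuclear activator REG gamma, had 407, 395, 467 and 439 and 248, 255, 273, 258 and 279 (-0.67 ± 0.07), and the regulatory subunits Psmd7 (-0.49 ± 0.11) and Psmd11 (-0.35 ± 0.08; -0.38 and no call with the position letter as a block) and the assembly factor Psmg1 (-0.34 ± 0.07) were lower. With equal medians 3 were higher and 11 lower, and with the letter block 3 were higher.

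Interferon-stimulated genes had 11 of 35 higher and 0 lower (median 0.16). Ddx58, the RNA sensor RIG-I (194, 181, 141 and 171 with vehicle and 289.9, 261, 251, 264 and 234 with PF-303, 0.56 ± 0.10), and Gbp3, a guanylate-binding protein (156, 179, 157 and 139 and 262, 205, 209, 206 and 208, 0.43 ± 0.09), were among them. With equal medians 5 were higher, with the letter block 3, and without vehicle replicate 4 there were 7.

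Lysosomal and autophagy genes were higher in 18 of 40 cases and lower in 1 (median 0.27); 11 were higher with equal medians and 5 with the letter block. The list level was 0.21 to 0.33 in the PF-303 arrays against -0.04 to 0.04 with vehicle. Hexa, a lysosomal hexosaminidase, had 1146, 1147, 1245 and 1233 with vehicle and 2015, 2132, 2201, 1776 and 1929 with PF-303 (0.74 ± 0.08), beside 775 ± 98.6 (SD, n = 4) in unstimulated vehicle arrays. Npc1, which exports cholesterol from lysosomes (0.75 ± 0.11), Tfeb, the regulator of lysosomal genes (47.3, 84.6, 66.7 and 71.1 and 118, 133, 141, 144 and 109, 0.81 ± 0.13), and Ctsh, a cathepsin (0.56 ± 0.11), were higher. Tfe3, a relative of Tfeb, was the lower gene (131, 151, 136 and 141 and 92.7, 85.9, 103, 92.2 and 91.4, -0.52 ± 0.13). The Ctsh call ended with the position letter as a block (0.41).

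Genes of opposite function in survival were among the lower ones. Bcl2l1, which encodes the survival protein BCL-XL, had 91.1, 108, 79.7 and 115 with vehicle and 45.3, 56.4, 45.6, 27.0 and 44.4 with PF-303 (-0.95 ± 0.14), and Bcl2l11, which encodes the killer protein BIM, 713, 548, 849 and 659 and 522, 381, 363, 320.4 and 392 (-0.78 ± 0.13). The survival kinases Pim1 and Pim3 fell furthest: Pim1 had 522, 467, 517 and 490.3 and 193, 156, 177, 217 and 146 (-1.42 ± 0.09), all 5 PF-303 arrays being below every PBS array, and Pim3 867, 809, 890.2 and 889.7 and 370.0, 356, 352, 332 and 364 (-1.25 ± 0.08). Casp9, the initiator caspase of the mitochondrial route (0.76 ± 0.12), and the effector Bak1 (0.57 ± 0.14) were higher. Bcl2 (0.48 ± 0.14) had overlapping groups and lost its call with equal medians and without vehicle replicate 5 (0.37 to 0.40), and Fadd (0.63 ± 0.15) lost it with the position letter as a block (0.54). Over the 23 genes 6 were higher and 4 lower (median 0.19).

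Transcription factors of B cell identity were called higher in 10 of 36 cases and lower in 6 (median 0.07), and 6 were higher with equal medians. Ets1, which restrains plasma cell differentiation, had 1954, 1956, 1903 and 1718 with vehicle and 4811, 3312, 3173, 3207 and 3429 with PF-303 (0.91 ± 0.13), with replicate 1 of PF-303 above the other 4. Fli1 (0.69 ± 0.11), Spib (1648, 1509.8, 1568 and 1594 and 2608, 2102, 2322, 2521 and 1975, 0.53 ± 0.11) and Tcf3, the E protein E2A (0.51 ± 0.10), were higher as well. Tbx21, which encodes T-bet, had 218, 214, 181 and 189.9 and 124, 98.9, 103, 71.3 and 130.3 (-0.86 ± 0.18), and Irf4, which drives class switching and plasma cell fate, 2178, 2063, 2288 and 2544 and 1948, 1580.1, 1706, 1543 and 1294 (-0.49 ± 0.12). With the letter block 5 were higher and 2 lower.

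Chromatin modifiers held some of the largest falls beside many genes that were not called, with 9 of 47 lower and 6 higher (median -0.00). Over all genes 10.3% were lower and 19.8% higher. Kdm6b, a demethylase of the repressive mark on lysine 27 of histone H3, had 1876, 1949, 2171 and 2132 with vehicle and 499, 643, 744, 601 and 661 with PF-303 (-1.67 ± 0.14). Kdm2b, a subunit of a variant Polycomb complex, had 1282, 1173, 1406 and 1633 and 516, 721, 516, 510.4 and 704 (-1.20 ± 0.19), the DNA methyltransferase gene Dnmt3b 201, 191, 185 and 213 and 71.3, 125, 125, 111 and 117 (-0.78 ± 0.12), and Chd4, the remodeller of the NuRD complex, 1021, 851, 1185 and 889.5 and 457, 569.8, 578, 676 and 684 (-0.72 ± 0.13). The rises were smaller, with the demethylase gene Kdm4a at 0.47 and the deacetylase gene Hdac5 at 0.51, and both calls ended with the position letter as a block (0.49 and 0.35), when 4 of the list were lower. With equal medians 2 were higher, and 3 without vehicle replicate 5 or PF-303 replicate 4.

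RNA decay genes included the ZC3H12 endonucleases, which degrade transcripts of cytokines and of NF-kB regulators. Zc3h12a, which encodes Regnase-1, had 153, 134, 145 and 143 with vehicle and 79.2, 83.0, 64.5, 66.7 and 67.7 with PF-303 (-0.86 ± 0.09), and Zc3h12c 221, 222, 172 and 199 and 94.9, 113, 82.2, 55.9 and 74.1 (-1.15 ± 0.14). Xrn2, a nuclear exonuclease, was lower (-0.55 ± 0.10; -0.17 and no call with the mean of all probe sets), as was the Roquin gene Rc3h1 (-0.43 ± 0.08; -0.28 and no call with the position letter as a block). Over the list 7 of 33 were lower and 2 higher (median 0.03); with the mean of all probe sets 11 were lower, without the 6 high spike-in arrays 4 were higher, with equal medians 1, and with the letter block 0. Among cytokine receptors and their signalling genes 10 of 35 were higher and 5 lower (median 0.22). Between 1 and 3 were lower in 8 settings, including those without vehicle replicate 1, 4 or 5 or PF-303 replicate 3. Il10ra (87.6, 79.6, 86.6 and 63.5 and 142, 123, 131, 143 and 160.2, 0.71 ± 0.09) and Stat5b (0.53 ± 0.10) were higher and Stat4 lower (319, 289, 365 and 368 and 236, 251, 221, 267 and 236, -0.44 ± 0.09).

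The largest differences outside these lists were as large as those within them. Casp4, the inflammatory caspase that senses lipopolysaccharide in the cytosol, had 703, 565, 687 and 689 with vehicle and 177, 226, 203, 209.7 and 218 with PF-303 (-1.60 ± 0.09), beside 212 ± 20.8 (SD, n = 4) in unstimulated cells. Bend3, a BEN domain protein of heterochromatin, had 709, 669, 755 and 686 and 200.0, 188, 203, 225 and 199 (-1.72 ± 0.09), and Myb, a factor of lymphoid progenitors and cycling cells, 668, 396, 529 and 563 and 158, 231, 136, 195 and 224 (-1.44 ± 0.18). H3f3b, a gene of histone H3.3, had 556, 345, 472 and 493 and 218, 180.2, 112, 141 and 141 (-1.48 ± 0.15), and unstimulated means were 656 ± 113 (SD, n = 4) with vehicle and 182 with PF-303 (5 arrays from 155 to 203). The uncharacterised 3300002A11Rik had 217, 179, 219.8 and 139 and 33.1, 50.4, 42.6, 47.7 and 83.8 (-1.62 ± 0.20).

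Among the rises, Cd2, an adhesion receptor for CD48, had 457, 446, 451 and 456 with vehicle and 920.0, 989, 1146, 1154 and 909.6 with PF-303 (1.14 ± 0.08), near the 1089 ± 75.9 (SD, n = 4) of unstimulated cells. Kctd14 had 261, 246, 271 and 233 and 811, 652, 736, 791 and 707 (1.49 ± 0.10). Trim7, a ubiquitin ligase (1.17 ± 0.13), Irf2bpl (1.16 ± 0.14), Ccdc69 (1.16 ± 0.10) and the glycosyltransferase gene B3gnt8 (1.21 ± 0.14) lay below the unstimulated vehicle mean on PF-303, at 301 against 570.0, 316 against 508, 323 against 387 and 119 against 228. Rell1, a relative of the RELT receptor, had 150.5, 146, 154 and 139 and 431, 355, 394, 374 and 330.1 (1.26 ± 0.10), Adi1, an enzyme of methionine salvage, 201, 197, 184 and 189.7 and 486, 522, 445, 447 and 373 (1.16 ± 0.09), Gpat3, of glycerolipid synthesis, 67.4, 87.2, 77.2 and 85.2 and 209, 236, 199, 204 and 198 (1.24 ± 0.11), and Gnpda1, a glucosamine phosphate deaminase, 117, 113, 110.4 and 114 and 339, 262, 286, 259.7 and 219 (1.14 ± 0.15). For these 4 genes all 5 PF-303 arrays lay above every PBS array while the vehicle arrays overlapped the PBS range. Tmem108 had 171, 152, 140 and 139 with vehicle and 419, 314, 347, 392 and 327 with PF-303 (1.17 ± 0.11). Its 2 other probe sets gave 0.03 and 0.13, far below the one used. The noncoding AY036118 was called (1.20 ± 0.29), but PF-303 replicate 1 stood at 1534 against 559 to 854, and the call ended with the position letter as a block (0.86).

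Set against all 9 PBS arrays, stimulated cells with PF-303 were intermediate for many of the genes that were lower. Of the 65 genes at least 2-fold lower, the 5 PF-303 arrays lay above every PBS array in 34, overlapped them in 29 and lay below all of them in 2, Pim1 and the kinase gene Sgk1, the latter named after its values were seen. Of the 41 at least 2-fold higher, the PF-303 arrays lay below every PBS array in 11, overlapped in 21 and lay above all in 9. Over all genes tested these shares were 7.49% above, 84.8% overlapping and 7.68% below. The counts are descriptions, since the same PF-303 arrays chose the genes.

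Other probe sets of the same genes mostly gave the same sign. Of the called genes 1851 had another tested probe set, and 2980 of these 3378 probe sets (88.2%) had the sign of the one used. In 16 genes another probe set was called the opposite way. In several genes named above another probe set gave a much smaller value than the one used: Icosl 0.09 against 0.94, Il10ra 0.08 against 0.71, Psme3 -0.10 against -0.67 and Arhgef1 0.24 against 0.92. For Il16, Mapk14 and Xrn2 1 other probe set had the opposite sign (-0.06, -0.02 and 0.30), and for Cdk6, Dnajc2, Hspa9 and Psmd11 the smallest value of another was -0.06, -0.03, -0.03 and -0.04. Of the genes changed at least 2-fold 47 had 79 other probe sets, of which 78 had the same sign and 0 an opposite call.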

How the data were processed

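The authors deposited MAS5 intensities of Affymetrix Mouse Genome 430 2.0 arrays (MAS5 per the submitters' processing notes), made from 150 ng of RNA per the labels' protocols; their version and annotation are not given in the sources used here. Of 45101 probe sets, 64 controls were left out, and the platform annotation gave 34945 a single gene symbol, 932 several and 9160 none; 204 named probe sets had no match in RefSeq. Values were taken as log2(intensity + 16). A probe set needed a signal over 15.2 (the median of the whole table) in 4 or more arrays, and that of highest mean stood for its gene. All 18 arrays were fitted together with limma 3.58.1 in R 4.3.3 (statmod 1.5.0; lmFit, eBayes with trend), with Benjamini-Hochberg adjustment over 11104 genes, and the code was tested on simulated data. The number of arrays limits the precision.

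Genes named are the 15 largest rises and 15 largest falls among called genes whose groups do not overlap and whose higher mean is at least 100, up to 4 called genes in each direction per list, the checks, and the 10 brightest list members not called; some of those whose call ended in many alternative settings were left out of the text after their values were seen. The members and lists were chosen with earlier results of these data known. The alternatives changed the offset, filter, scaling, blocks, covariate, probe set rule, trend and arrays used; 2 of them (leaving out arrays of high spike-in signal, and equal medians of the tested genes) were chosen after seeing the data.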

Additional observations from a re-analysis of the deposited data

Results flagged for a closer look

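In some genes 1 array of a group stood apart from the others by Dixon's criterion, which flags about 1 in 20 groups by chance. Values are signals of that array, followed by the range of the other arrays of its group. Replicate 1 of anti-IgD with PF-303 stood apart in Icosl (576 against 194 to 271), Dusp6 (936 against 698 to 742), Psmd7 (223 against 322 to 356), Gbp3 (262 against 205 to 209), Ets1 (4811 against 3173 to 3429), Dnmt3b (71.3 against 111 to 125), Arhgef1 (832 against 347 to 431), Stat5b (291 against 224 to 239) and Cd79a (4788 against 1436 to 1931). Replicate 2 of anti-IgD with PF-303 stood apart in S1pr4 (286 against 328 to 345). Replicate 3 of anti-IgD with PF-303 stood apart in Cd79b (7618 against 4717 to 5348), Vav3 (31.9 against 44.5 to 49.5), Rps25 (620.4 against 536 to 555), Ctps (345 against 281 to 294) and Ctsh (2556 against 2123 to 2230.0). Replicate 4 of anti-IgD with PF-303 stood apart in Fos (326 against 36.9 to 73.4) and Cd69 (373 against 554 to 579.5). Replicate 1 of anti-IgD with vehicle stood apart in Fos (411 against 216 to 245). Replicate 2 of anti-IgD with vehicle stood apart in Casp4 (565 against 687 to 703), S1pr1 (344 against 245 to 261), Traf5 (168 against 124 to 130.3), Sema4b (287 against 240.4 to 246) and Rpl12 (778 against 922 to 941). Replicate 4 of anti-IgD with vehicle stood apart in Tnip1 (270.2 against 222 to 229.9), Cd48 (564 against 642 to 654) and H2-Aa (5752 against 7663 to 7897).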

How the results depend on the processing

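In 24 alternative settings 0 genes were called the opposite way. Against 2195 higher and 1146 lower, the position letter as a block gave 1066 and 655, and equal medians of the tested genes gave 1283 higher. Against 41 genes at least 2-fold higher and 65 lower, an offset of 1 gave 139 and 100, an offset of 64 gave 12 and 40, equal medians gave 19 and 105, and the mean of all probe sets gave 27 higher. The offset sets how far dim genes can move; the cause of the other differences was not tested. Leaving out each array in turn gave 1848 to 2080 higher and 944 to 1087 lower, with 35 to 50 and 60 to 78 at least 2-fold. The replicate block gave 2203 higher and 1149 lower, of which 2039 and 1079 were also called without it; the correlations of same-numbered arrays were -0.091 to 0.166. Of the 177 called genes of the text that were followed through the settings, 150 kept the call in every setting. With 4 and 5 arrays, differences under the 95% interval of 0.255 were mostly not detectable.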

Other observations

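Genes at least 2-fold changed that the naming rule left out were looked at after their values were seen, and are given here as signals (mean ± SD, n = 4 with vehicle and n = 5 with PF-303). Rilpl2, whose product acts in ciliary and vesicle transport, had 3555 ± 236 with vehicle and 1387 ± 220.0 with PF-303 (-1.36 ± 0.13, SE). Tfrc, the transferrin receptor that supplies iron to growing cells, had 1414 ± 40.4 and 623 ± 69.1 (-1.17 ± 0.10). Nr4a1, a relative of Nr4a3, had 2326 ± 163 and 988 ± 216 (-1.25 ± 0.14), and Mir155hg, the host gene of miR-155, had 101 ± 16.9 and 32.2 ± 7.97 (-1.28 ± 0.15).

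On the higher side, Lgmn, a lysosomal protease, had 314 ± 18.9 with vehicle and 669 ± 95.4 with PF-303 (1.05 ± 0.11), and Marchf1, a ubiquitin ligase that removes MHC class II and CD86 from the surface, had 333 ± 27.8 and 735 ± 62.7 (1.11 ± 0.08). In Rilpl2, Tfrc, Nr4a1, Mir155hg, Lgmn and Marchf1 the groups did not overlap. The largest rise by fold, Slc15a2, a peptide transporter, rests on values from 5.82 to 297 with vehicle and 63.2 to 322 with PF-303, which overlap widely (1.97 ± 0.71, adjusted p = 0.042).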
